A study of Mus musculus with 11 samples.

Results

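Serine synthesis, mitochondrial one-carbon metabolism and the amino acid stress response were followed here through 10 mouse genes in bone marrow cells that acquired leukaemia oncogenes in different orders. The genes were Phgdh, Psat1, Psph, Shmt2, Mthfd2, Asns, Atf4, Chac1, Trib3 and Slc7a11. They were chosen by name with earlier results of these data known, as were the gene lists below. Shares of all genes beside their counts are thus a description, not a test. The 10 genes were matched by Ensembl identifier and make up 10 of the 51912 genes in the count table. All 10 passed the filter on low counts that left 15703 genes for testing. RNA-seq was performed on 3 groups of cells sorted as lineage-negative from C57BL/6 bone marrow. The vector named MIG carried GFP and expressed its oncogene constitutively, while the vector named idsRed released its oncogene only after recombination by the tamoxifen-activated Cre of Rosa26 ERT2-Cre marrow. CSF3R-only cells (n = 4) carried MIG with CSF3R T618I and an empty idsRed. CSF3R-first cells (n = 3) carried MIG with CSF3R T618I and idsRed with CEBPA V314VW. CEBPA-first cells (n = 4) carried the reverse, MIG with CEBPA V314VW and idsRed with CSF3R T618I. CSF3R T618I is an activating mutation of the G-CSF receptor, and CEBPA V314VW is a C-terminal mutation of the myeloid transcription factor C/EBPα. All groups were also sorted as double-positive for both fluorescent markers. They were then kept for 48 h without cytokines in 4-hydroxytamoxifen, and RNA was extracted after this culture. The control group thus shared the drug, the Cre and both vectors. Per the study's methods, donors of transduced marrow were 6 to 12 weeks old. Transgene expression depended on retroviral integration, the transgenes were human coding sequences, and no group held the CEBPA mutant alone.

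The first enzyme of serine synthesis is phosphoglycerate dehydrogenase (Phgdh), followed by phosphoserine aminotransferase (Psat1) and phosphoserine phosphatase (Psph), which together make serine from a glycolytic intermediate. In mitochondria, Shmt2 takes a carbon from serine onto folate and Mthfd2 oxidizes it, a supply line for purine and thymidylate synthesis in dividing cells. Atf4 encodes the transcription factor of the integrated stress response. It is controlled largely at translation, when phosphorylated eIF2 slows general protein synthesis, and it binds elements shared by C/EBP and ATF proteins in front of amino acid genes. Asns (asparagine synthetase), Chac1 (a glutathione-degrading enzyme), Trib3 (a pseudokinase) and Slc7a11 (the cystine-glutamate exchanger that feeds glutathione synthesis) are among its known targets, as are the serine and folate enzymes.

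The C/EBP-ATF element was searched as TGATGNAA, on both strands, in RefSeq promoter windows of GRCm38.p6 that run from 250 bases before to 50 bases after each gene's start. All 10 genes matched a window, and 4 of the 10 held the element, against 4.51% of 27025 genes and 3.97% of 32851 windows. Since the 10 genes include known targets of ATF4, which binds this element, the difference from those shares is not a test. The stretches with a match are shown 5′ to 3′ on the strand of the gene because these 4 genes shared the element and differed in the RNA data, where Asns and Chac1 rose, Slc7a11 fell and Trib3 was not called. Capitals mark the element, given as TGATGNAA or its reverse complement.

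Asns, chr6:7693180-7693329, minus strand: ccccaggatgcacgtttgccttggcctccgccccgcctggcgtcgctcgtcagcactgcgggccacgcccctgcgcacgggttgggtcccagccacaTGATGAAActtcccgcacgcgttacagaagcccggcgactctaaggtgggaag
Chac1, chr2:119350992-119351141, plus strand: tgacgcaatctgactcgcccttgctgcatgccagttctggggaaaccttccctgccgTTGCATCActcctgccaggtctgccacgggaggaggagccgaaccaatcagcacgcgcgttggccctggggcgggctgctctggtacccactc
Trib3, chr2:152344031-152344180, minus strand: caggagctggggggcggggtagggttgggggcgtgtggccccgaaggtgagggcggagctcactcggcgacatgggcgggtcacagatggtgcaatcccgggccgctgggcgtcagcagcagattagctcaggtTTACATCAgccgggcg
Slc7a11, chr3:50443584-50443733, minus strand: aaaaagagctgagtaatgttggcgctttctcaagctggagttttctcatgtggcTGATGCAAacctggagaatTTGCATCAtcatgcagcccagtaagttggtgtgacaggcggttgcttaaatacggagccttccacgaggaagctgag

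The match began 23 bases before the start of Asns and 193 bases before that of Chac1, and 15 bases after the start of Trib3. Slc7a11 held a pair of matches in opposite orientation, 66 and 47 bases before its start. No match was found in the windows of Phgdh, Psat1, Psph, Shmt2, Mthfd2 and Atf4, which says only that these letters are not in those 300 bases. No binding was measured in these samples.

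Total counts per sample ranged from 47905747 to 72268346 with a median of 53353624, and 3 counts, the limit that a count of 0 allows, corresponded to 0.0383 to 0.0648 CPM (counts scaled to library size) for counting error only. The 10 genes held 369 to 35205 counts each in a sample, far above that floor. Levels are given as CPM on library sizes normalized by the trimmed mean of M values (TMM). Each comparison used edgeR's quasi-likelihood test in a single fit of the 3 groups, and a gene was called where its Benjamini-Hochberg adjusted p over all 15703 genes was under 0.05. Replicates are lettered in the labels, which do not say whether they came from separate animals, so the p-values measure the spread between these samples, which may be technical. RNA of lineage antigens was read from 10 genes of antigens common in mouse lineage stains. These were chosen here because the sources used do not itemize the study's cocktail. Their levels are those after the culture and do not give lineage status at sorting. The T cell genes Cd3e and Cd8a were at 0 in every sample, whereas Itgam (CD11b) averaged 450 CPM in CSF3R-only, 211 in the CSF3R-first samples and 62.2 in the CEBPA-first samples, and Ly6g averaged 45.8, 17.3 and 3.65. The pan-leukocyte gene Ptprc (CD45) averaged 1134, 838 and 585 CPM in the same order. Of the 6 of these genes that were tested, 4 were called lower in CEBPA-first against CSF3R-only and 2 higher. Of all genes tested, 36.6% were lower and 35.4% higher there. The 2 higher were Ly6c2, with means of 234, 251 and 291 CPM, and the barely detected Ly6c1. These bulk libraries cannot tell fewer cells of a type apart from less RNA per cell.

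Across the 3 groups, Phgdh, Psat1, Psph, Shmt2, Mthfd2 and Atf4 were lowest in CSF3R-only, intermediate in the CSF3R-first samples and highest in the CEBPA-first samples, with no overlap between any of the groups. Asns followed the same order of means, with an overlap between CSF3R-only and CSF3R-first. Slc7a11 ran the opposite way without overlap. Chac1 was higher in both groups with the CEBPA mutant than in CSF3R-only, and the levels of Trib3 overlapped in all 3 groups. Of all genes tested, 14.2% rose in that order without overlap (6 of the 10 genes) and 13.4% fell (1 of the 10 genes).

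**Figure D1:**
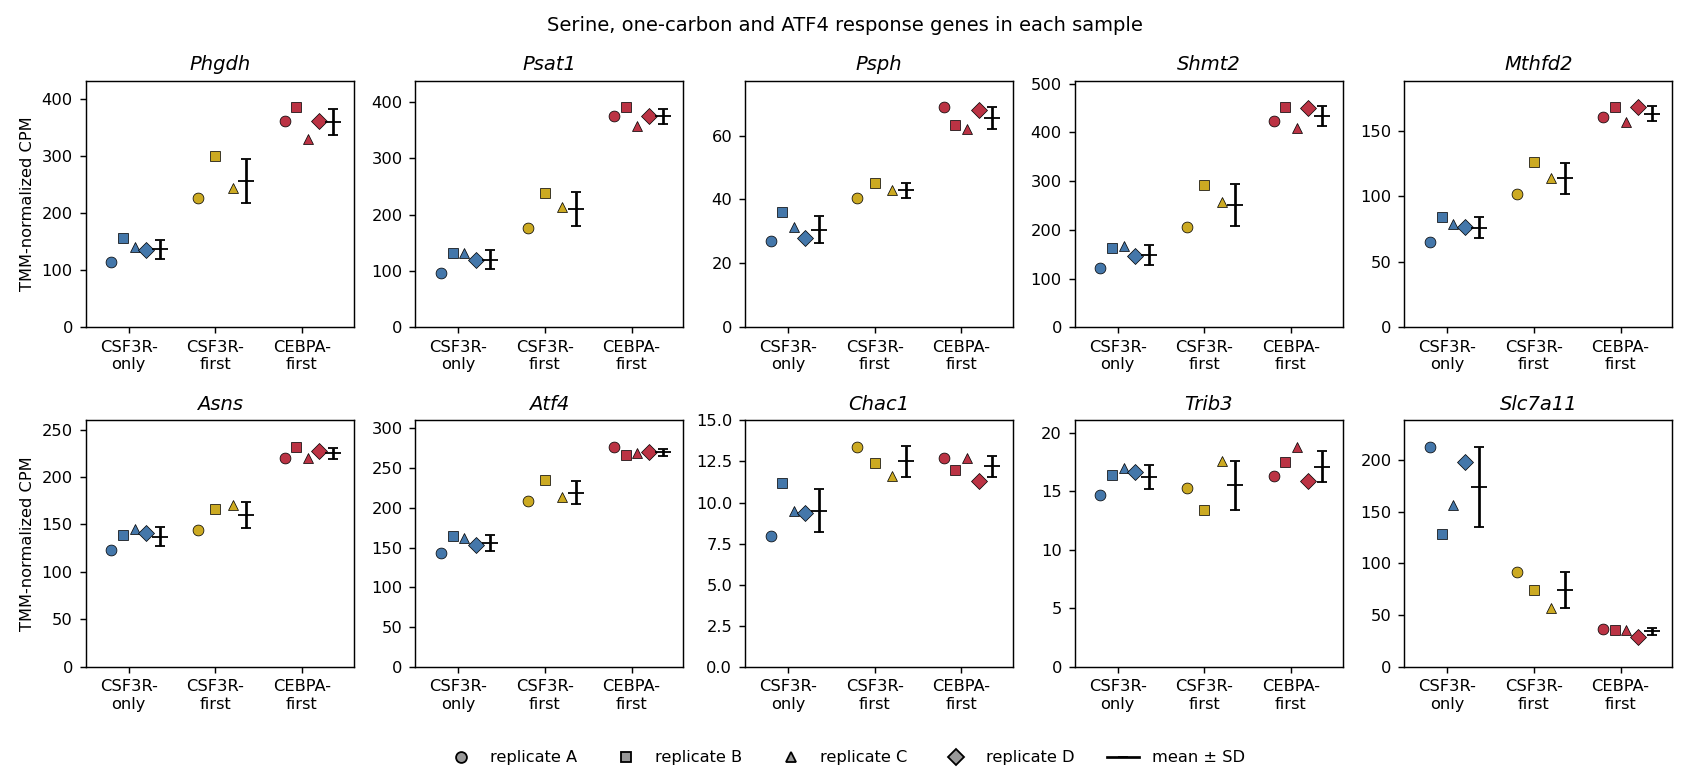
TMM-normalized CPM of each gene (vertical axes, each starting at 0 with its own scale) in samples of the 3 groups, CSF3R-only at the left. Symbols mark the lettered replicates, and the bars beside them give mean ± SD (n = 4, 3 and 4). The serine and folate enzymes and Atf4 step upward from left to right, Slc7a11 steps downward, and Chac1 and Trib3 show no such order.

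In CEBPA-first against CSF3R-only, 9 of the 10 genes were called, 8 higher and 1 lower, where 72.0% of all genes tested were called, 35.4% higher and 36.6% lower. The comparison asks how far cells that carried the CEBPA mutant before the CSF3R mutant stood from cells with the CSF3R mutant alone. With a log2 fold change of at least 1 as well, the threshold of the study, 6 of the 10 genes passed, 5 higher and 1 lower, against 27.0% of all genes (8.07% higher and 19.0% lower). The groups did not overlap for 9 of the 10 genes, against 68.7% of all genes, so the absence of overlap was the rule in this comparison. The median log2 fold change of the 10 genes was 0.95 and that of all genes was -0.00.

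In CSF3R-first against CSF3R-only, which asks what the CEBPA mutant added when it came after the CSF3R mutant, 9 of the 10 genes were again called, 8 higher and 1 lower, where 42.7% of all genes were called, 21.6% higher and 21.1% lower. Only Slc7a11 also reached a log2 fold change of 1, which 6.65% of all genes did, 2.13% higher and 4.53% lower. The groups did not overlap for 8 of the 10 genes, against 42.1% of all genes, and the median log2 fold change was 0.49 against -0.02 for all genes.

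CEBPA-first against CSF3R-first compares both orders of the same oncogenes. The order changed together with the vector of each oncogene and the time it was expressed, which cannot be told apart here. Here 8 of the 10 genes were called, 7 higher and 1 lower, where 48.3% of all genes were called, 24.0% higher and 24.3% lower. Slc7a11 alone passed the fold threshold, as 12.8% of all genes did, 2.57% higher and 10.3% lower, but not without CSF3R-first replicate A (-0.94). The groups did not overlap for 8 of the 10 genes, against 52.2% of all genes. The median log2 fold change was 0.49 and that of all genes 0.00. The 3 comparisons share samples, so their calls are not independent, and 7 of the 10 genes were called higher in all 3 where 14.5% of all genes were. Slc7a11 was called lower in all 3, as 14.2% of all genes were.

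**Figure D2:**
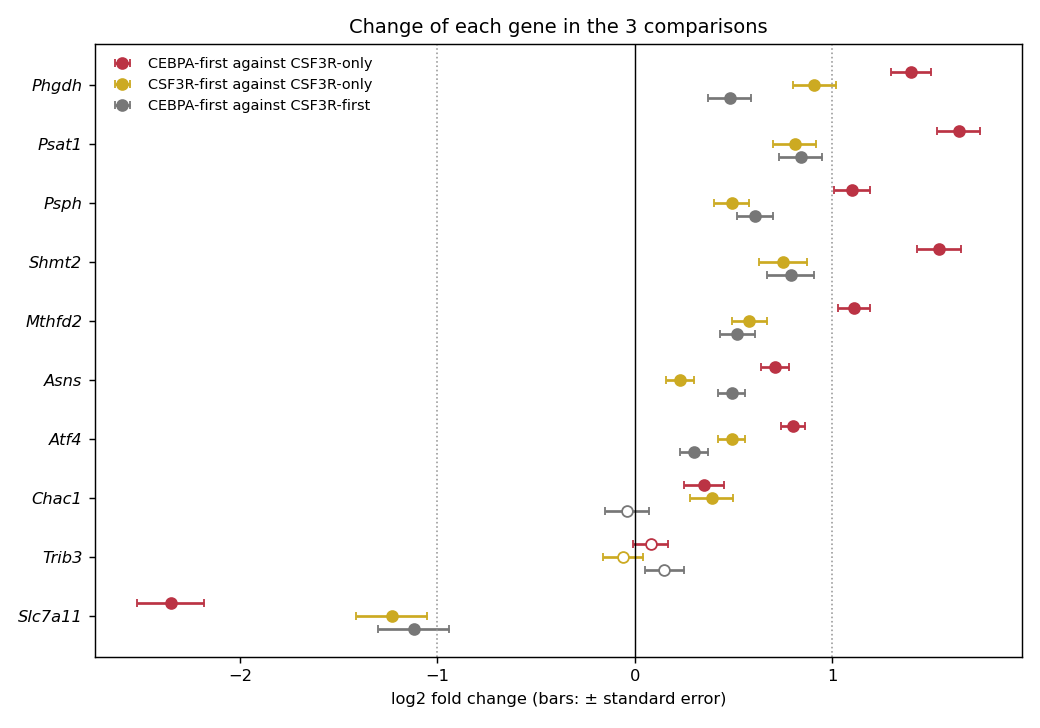
Log2 fold change of each gene with its standard error in the 3 comparisons (horizontal axis, positive where the first-named group was higher). Filled points had an edgeR adjusted p under 0.05, and dotted lines mark log2 fold changes of 1 and -1. Psat1 (1.64), Shmt2 (1.54) and Phgdh (1.40) lie farthest to the right and Slc7a11 (-2.35) farthest to the left, all in CEBPA-first against CSF3R-only.

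Every enzyme of the serine synthesis pathway was higher in both groups with the CEBPA mutant than in CSF3R-only, and highest in CEBPA-first. Phgdh (ENSMUSG00000053398, GRCm38 chromosome 3, 98313170 to 98339990, minus strand) was at 115, 156, 141 and 136 CPM in CSF3R-only replicates A to D. It was at 227, 301 and 244 CPM in CSF3R-first replicates A to C and at 362, 386, 330 and 362 CPM in CEBPA-first replicates A to D. Each group lay wholly above the one before it. The mean rose from 137 ± 16.8 (SD, n = 4) in CSF3R-only to 257 ± 38.6 (n = 3) in CSF3R-first, a log2 fold change of 0.91 (SE 0.11, edgeR adjusted p = 7.9e-05). It reached 360 ± 22.9 (n = 4) in CEBPA-first, 2.63-fold the level of CSF3R-only (log2 fold change 1.40, SE 0.10, edgeR adjusted p = 1.2e-07). Between the orders the log2 fold change was 0.48 (SE 0.11, edgeR adjusted p = 0.0036). Near-identical sequence of Gm7901 and Gm9347 covered 84.6% of the longest Phgdh transcript. These copies held 16 to 153 and 1 to 39 counts per sample, against at least 5324 for Phgdh, and how the authors' counting shared reads among them is not given in the sources used here.

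Psat1 (ENSMUSG00000024640, chromosome 19, 15904678 to 15947337, minus strand), the transaminase of the pathway, had the largest rise of the 10 genes in both comparisons of CEBPA-first, while Phgdh rose most in CSF3R-first against CSF3R-only. Its CPM was 96.7, 131, 132 and 119 in CSF3R-only, 177, 238 and 214 in the CSF3R-first samples and 375, 390, 357 and 375 in the CEBPA-first samples. The lowest CEBPA-first sample was well above the highest CSF3R-first sample. The mean of 374 ± 13.3 CPM (n = 4) in CEBPA-first was 3.13-fold that of CSF3R-only, 120 ± 16.3 (n = 4), a log2 fold change of 1.64 (SE 0.11, edgeR adjusted p = 3.6e-08). CSF3R-first, at 210 ± 30.5 CPM (n = 3), exceeded CSF3R-only by a log2 fold change of 0.81 (SE 0.11, edgeR adjusted p = 0.0002) and fell short of CEBPA-first by 0.84 (SE 0.11, edgeR adjusted p = 0.00011).

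Psph (ENSMUSG00000029446, chromosome 5, 129765558 to 129787449, minus strand), which releases serine in the last step, was the least abundant of the 3 enzymes and the least changed in both comparisons with CSF3R-only. Its CPM was 26.9, 36.1, 31.3 and 28 in CSF3R-only, 40.6, 45.2 and 42.9 in the CSF3R-first samples and 68.8, 63.2, 61.9 and 68.1 in the CEBPA-first samples. The groups again formed separate steps. The log2 fold change was 1.10 (SE 0.09, edgeR adjusted p = 1.9e-07) in CEBPA-first and 0.49 (SE 0.09, edgeR adjusted p = 0.0014) in CSF3R-first against CSF3R-only, and 0.61 (SE 0.09, edgeR adjusted p = 0.00026) between the orders. Of its exon bases, 10.4% overlap Cct6a, a chaperonin subunit gene on the opposite strand with 15585 to 63002 counts per sample. Cct6a was itself called higher in each comparison (log2 fold change 1.02, 0.51 and 0.51), whether counting used strand is not stated, and the part of shared reads in the Psph values was not tested.

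The mitochondrial folate enzymes moved with the serine enzymes. Shmt2 (ENSMUSG00000025403, chromosome 10, 127517123 to 127522444, minus strand), mitochondrial serine hydroxymethyltransferase, was at 122, 162, 167 and 146 CPM in CSF3R-only. It was at 206, 292 and 256 CPM in the CSF3R-first samples and at 423, 451, 408 and 450 CPM in the CEBPA-first samples. All samples of each group lay above those of the group before. The mean went from 149 ± 20.3 (n = 4) through 251 ± 42.9 (n = 3) to 433 ± 20.9 CPM (n = 4), 2.90-fold higher in CEBPA-first than in CSF3R-only. The log2 fold changes were 1.54 (SE 0.11, edgeR adjusted p = 1.1e-07) and 0.75 (SE 0.12, edgeR adjusted p = 0.00049) against CSF3R-only and 0.79 (SE 0.12, edgeR adjusted p = 0.00029) between the orders. An overlap with Ndufa4l2 takes up 1.03% of its exon bases.

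Mthfd2 (ENSMUSG00000005667, chromosome 6, 83305691 to 83325908, minus strand), the mitochondrial methylenetetrahydrofolate dehydrogenase, was at 64.8, 83.9, 78.6 and 76.6 CPM in CSF3R-only. It was at 102, 126 and 114 CPM in the CSF3R-first samples and at 161, 168, 157 and 168 CPM in the CEBPA-first samples. The CEBPA-first samples spread little around their mean of 163 ± 5.74 CPM (n = 4). The log2 fold change was 1.11 (SE 0.08, edgeR adjusted p = 1.3e-07) in CEBPA-first and 0.58 (SE 0.09, edgeR adjusted p = 0.00037) in CSF3R-first against CSF3R-only, and 0.52 (SE 0.09, edgeR adjusted p = 0.00056) between the orders.

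The rise was not limited to the mitochondrial enzymes. The folate genes named next outside the 10 were chosen after their values were seen, except Shmt1, which was named by a rule because it was among the 2 folate genes that rose most in CEBPA-first. All of them were thus chosen on their values. Cytosolic Shmt1 went from 35.8 ± 6.73 CPM (n = 4) in CSF3R-only to 60.9 ± 13 (n = 3) in the CSF3R-first samples and 104 ± 9.14 (n = 4) in the CEBPA-first samples. Its log2 fold changes against CSF3R-only, 0.77 and 1.54, were close to those of Shmt2. The cytosolic trifunctional enzyme gene Mthfd1 rose by 1.17 in CEBPA-first and by 0.53 in CSF3R-first, and its mitochondrial relative Mthfd1l rose by 1.07 and by 0.53. Mthfd2l, the close homologue of Mthfd2, was at 5.4 ± 0.604 CPM (n = 4) in CSF3R-only, 4.84 ± 0.72 (n = 3) in the CSF3R-first samples and 6.69 ± 0.857 (n = 4) in the CEBPA-first samples. Its groups overlapped in both comparisons with CSF3R-only, and its log2 fold changes were 0.31 (edgeR adjusted p = 0.045) in CEBPA-first and -0.16 (edgeR adjusted p = 0.4) in CSF3R-first. The call in CEBPA-first was lost without CSF3R-only replicate A (0.24, edgeR adjusted p = 0.13), CSF3R-only replicate D (0.30, edgeR adjusted p = 0.088), CEBPA-first replicate A (0.33, edgeR adjusted p = 0.06), CEBPA-first replicate C (0.32, edgeR adjusted p = 0.072) or CEBPA-first replicate D (0.22, edgeR adjusted p = 0.15). It was also lost with upper-quartile library sizes (0.31, edgeR adjusted p = 0.06) and with a minimum of 10 counts in every sample (0.27, edgeR adjusted p = 0.074). Between the orders the Mthfd2l groups did not overlap, and it was called higher in CEBPA-first, with a log2 fold change of 0.47 (edgeR adjusted p = 0.016). That call was lost without CSF3R-first replicate A (0.36, edgeR adjusted p = 0.062).

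Atf4 mRNA (ENSMUSG00000042406, chromosome 15, 80255184 to 80257541, plus strand) had a smaller log2 fold change than each serine enzyme in CEBPA-first. It was at 143, 165, 162 and 153 CPM in CSF3R-only, 208, 235 and 214 in the CSF3R-first samples and 277, 266, 269 and 270 in the CEBPA-first samples. The groups did not overlap. Against 156 ± 10.1 CPM (n = 4) in CSF3R-only, the mean was 270 ± 4.31 (n = 4) in CEBPA-first, a log2 fold change of 0.80 (SE 0.06, edgeR adjusted p = 1.8e-07), and 219 ± 14.5 (n = 3) in CSF3R-first, a log2 fold change of 0.49 (SE 0.07, edgeR adjusted p = 0.00018). Between the orders the log2 fold change was 0.30 (SE 0.07, edgeR adjusted p = 0.0028). These are mRNA levels, and ATF4 protein was not measured.

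Asns (ENSMUSG00000029752, chromosome 6, 7675169 to 7693254, minus strand), with the element close to its start, was at 123, 139, 145 and 141 CPM in CSF3R-only, 144, 166 and 170 in the CSF3R-first samples and 220, 232, 220 and 227 in the CEBPA-first samples. CEBPA-first stood clear of both other groups, while CSF3R-first replicate A lay within the CSF3R-only range. Asns rose in CEBPA-first with a log2 fold change of 0.71 (SE 0.07, edgeR adjusted p = 1.1e-06) against CSF3R-only and of 0.49 (SE 0.07, edgeR adjusted p = 0.00026) against CSF3R-first. In CSF3R-first against CSF3R-only the log2 fold change was 0.23 (SE 0.07, edgeR adjusted p = 0.026). That call was lost without CSF3R-only replicate A (0.17, edgeR adjusted p = 0.07), CSF3R-first replicate B (0.20, edgeR adjusted p = 0.097) or CSF3R-first replicate C (0.20, edgeR adjusted p = 0.09), and with CEBPA-first left out of the fit (0.24, edgeR adjusted p = 0.056).

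Chac1 (ENSMUSG00000027313, chromosome 2, 119351229 to 119354381, plus strand), whose product breaks down glutathione, was scarce. It was at 7.97, 11.2, 9.49 and 9.36 CPM in CSF3R-only, 13.4, 12.4 and 11.6 in the CSF3R-first samples and 12.7, 12, 12.7 and 11.3 in the CEBPA-first samples. Both groups with the CEBPA mutant lay just above CSF3R-only and overlapped each other. The log2 fold change against CSF3R-only was 0.35 (SE 0.10, edgeR adjusted p = 0.006) in CEBPA-first and 0.39 (SE 0.11, edgeR adjusted p = 0.011) in CSF3R-first, and between the orders it was -0.04 (SE 0.11, edgeR adjusted p = 0.81), a difference whose sign changed with total-count scaling (0.01). Without CSF3R-only replicate A and CSF3R-first replicate A, left out together, the value in CSF3R-first was 0.26 (edgeR adjusted p = 0.057).

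Trib3 (ENSMUSG00000032715, chromosome 2, 152337422 to 152344032, minus strand), a stress-induced pseudokinase, was not called in any comparison. It was at 14.7, 16.4, 17 and 16.6 CPM in CSF3R-only, 15.3, 13.4 and 17.6 in the CSF3R-first samples and 16.3, 17.5, 18.8 and 15.9 in the CEBPA-first samples. All 3 ranges overlapped. Its log2 fold change was 0.08 (SE 0.09, edgeR adjusted p = 0.43) in CEBPA-first and -0.06 (SE 0.10, edgeR adjusted p = 0.64) in CSF3R-first against CSF3R-only, the second of which changed sign with total-count scaling (0.02), and 0.15 (SE 0.10, edgeR adjusted p = 0.24) between the orders.

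Slc7a11 (ENSMUSG00000027737, chromosome 3, 49892526 to 50443614, minus strand), the exchanger that imports cystine, fell at each step and had the largest change of the 10 genes. Its CPM was 213, 128, 157 and 198 in CSF3R-only, 91.2, 73.9 and 56.9 in the CSF3R-first samples and 36.6, 35.1, 35.5 and 29.1 in the CEBPA-first samples. The lowest CSF3R-only sample was above the highest CSF3R-first sample, and the lowest CSF3R-first sample above the highest CEBPA-first sample. The mean fell from 174 ± 38.9 CPM (n = 4) in CSF3R-only to 74 ± 17.2 (n = 3) in CSF3R-first, a log2 fold change of -1.23 (SE 0.18, edgeR adjusted p = 0.0003). It fell to 34.1 ± 3.39 CPM (n = 4) in CEBPA-first, 5.11-fold below CSF3R-only (log2 fold change -2.35, SE 0.17, edgeR adjusted p = 9.3e-08). Between the orders it was -1.12 (SE 0.18, edgeR adjusted p = 0.00031). Slc3a2, the heavy chain that pairs with Slc7a11 and was singled out after its values were seen, changed much less, from 409 ± 17.8 CPM (n = 4) in CSF3R-only to 315 ± 13.8 (n = 3) in the CSF3R-first samples and 315 ± 9.34 (n = 4) in the CEBPA-first samples (log2 fold change -0.38 in both, edgeR adjusted p = 0.00058 and 5.1e-05).

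Per kilobase of exon, Phgdh (145 CPM per kb), Shmt2 (139) and Atf4 (115) had the highest mean levels in CEBPA-first, followed by Psat1 (87.9), Asns (82.1), Mthfd2 (46.9), Psph (15.1), Trib3 (8.06), Chac1 (7.43) and Slc7a11 (2.45). In CSF3R-only, on the same scale, Atf4 (66 CPM per kb) came before Phgdh (55), Asns (50.1), Shmt2 (48), Psat1 (28.1), Mthfd2 (21.8), Slc7a11 (12.5), Trib3 (7.61), Psph (7.06) and Chac1 (5.8). Slc7a11 thus dropped from seventh to last. Its annotated exons span 13922 bases, and the per-length level assumes that all of them are in the transcripts counted.

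For each gene apart from Trib3, the log2 fold change of CSF3R-first against CSF3R-only was divided by that of CEBPA-first, so that 0 is the level of CSF3R-only and 1 that of CEBPA-first. The median position of these 9 genes was 0.524. Phgdh (0.653) and Atf4 (0.617) lay nearer CEBPA-first, Mthfd2 (0.527), Slc7a11 (0.524), Psat1 (0.492) and Shmt2 (0.489) near the middle, and Psph (0.445) and Asns (0.316) nearer CSF3R-only. Chac1 was at 1.1, but its side of 1 is not determined, since its difference between the orders was not called and changed sign with total-count scaling.

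Single replicates stood at the edge of their group across many of the genes. CSF3R-only replicate A was the lowest of its group for 9 of the 10 genes and the highest for Slc7a11. CSF3R-first replicate A was the lowest of its group for 7 genes, and CSF3R-first replicate B the highest for 6. The summed CPM of 15 S phase genes moved alongside: CSF3R-only replicate A had the lowest sum of its group (2354, against 2986, 2774 and 2640), and CSF3R-first replicate A the lowest of its own (3758, against 4458 and 4074). The summed CPM of 10 neutrophil markers was highest in the same libraries, at 32449 for CSF3R-only replicate A and 25234 for CSF3R-first replicate A.

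**Figure D3:**
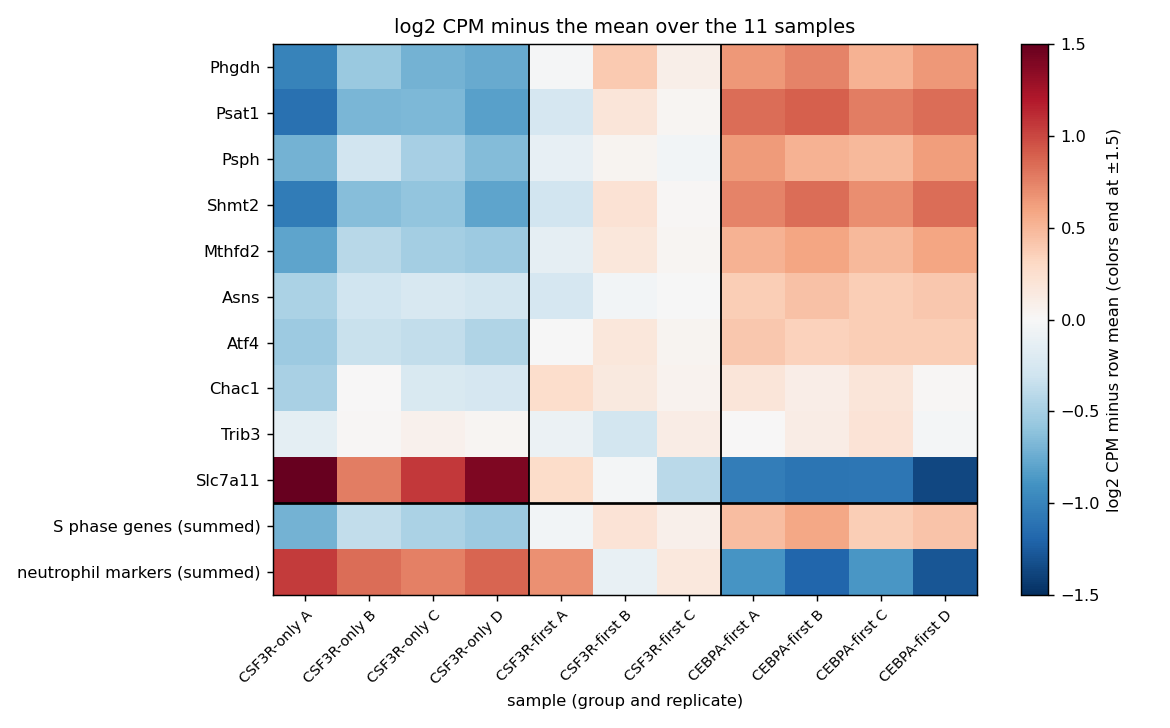
Log2 CPM of each gene in each sample minus its mean over the 11 samples, with colours ending at 1.5 in either direction, and the same for the summed CPM of 15 S phase genes and 10 neutrophil markers in the bottom lines. CSF3R-only replicate A is the lowest of its group in 9 genes and in the S phase sum (2354), and the neutrophil sum has the same direction as Slc7a11 across groups.

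Between groups the S phase sum ranged from 2354 to 2986 CPM in CSF3R-only, 3758 to 4458 in the CSF3R-first samples and 4967 to 5761 in the CEBPA-first samples. The marker counts that follow stand beside the shares of all genes tested. Against CSF3R-only, 35.4% were called higher and 36.6% lower in CEBPA-first, and 21.6% higher and 21.1% lower in CSF3R-first. Between the orders the shares were 24.0% and 24.3%. All 15 S phase genes were called higher in both groups with the CEBPA mutant than in CSF3R-only, and 13 of 15 in CEBPA-first against CSF3R-first. The neutrophil sum ranged from 26403 to 32449 CPM in CSF3R-only, 14489 to 25234 in the CSF3R-first samples and 6430 to 8559 in the CEBPA-first samples. Of 10 neutrophil markers, 10 were called lower in CEBPA-first and 9 in CSF3R-first against CSF3R-only, and 10 in CEBPA-first against CSF3R-first. None of these markers was at 0 in every sample. Of 6 megakaryocyte markers, 6 were called lower in each comparison, with sums of 841 to 1145 CPM in CSF3R-only, 328 to 507 in the CSF3R-first samples and 110 to 154 in the CEBPA-first samples. Of 8 erythroid markers, 7 were called lower in CEBPA-first and 0 in CSF3R-first against CSF3R-only, with sums of 275 to 415, 124 to 373 and 53.7 to 81.9 CPM in that order. Of 5 eosinophil markers tested, 3 were called lower in each comparison with CSF3R-only. Monocyte and macrophage sums overlapped (5177 to 5655, 3817 to 6237 and 3850 to 5643 CPM), with 2 of 8 markers called higher and 6 lower in CEBPA-first against CSF3R-only. In CEBPA-first against CSF3R-only, 4 of 6 progenitor markers were called higher and 2 lower. The 2 lower were Cd34, from a mean of 88.8 CPM in CSF3R-only to 17.9 in CEBPA-first, and Ly6a, from 402 to 63.2. The 4 higher were Kit (27.6 to 34.8), Flt3 (2.34 to 6.6), Myb (108 to 331) and Cd48 (88.1 to 141). The lymphoid and dendritic lists each had 1 marker called higher in that comparison, beside 2 and 3 called lower. Of 8 mast cell and basophil markers, 1 was called higher and 4 lower in CEBPA-first and 7 lower in CSF3R-first against CSF3R-only, and 3 higher and 2 lower between the orders, with sums of 1679 to 2610 CPM in CSF3R-only, 1078 to 1334 in the CSF3R-first samples and 1229 to 1661 in the CEBPA-first samples. The part of proliferation, maturation or cell composition in the 10 genes' values was not tested. With replicate A of CSF3R-only and of CSF3R-first left out together, an alternative added after the data had been seen, 9, 8 and 8 of the 10 genes were called in the 3 comparisons, in the order given above, against 70.1%, 43.8% and 39.9% of all genes tested in that fit.

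Wider lists place the 10 genes among their pathways, and the counts here cover the genes tested. Cth, Slc3a2 and Ppp1r15a each belong to 2 of the lists, and Tyms of the folate list is also among the 15 S phase genes. Each list is read beside the shares of all genes tested, of which 35.4% were called higher and 36.6% lower in CEBPA-first against CSF3R-only, and 21.6% higher and 21.1% lower in CSF3R-first. In the folate one-carbon list, 18 of 23 genes rose (78.3%) and 3 fell in CEBPA-first against CSF3R-only, with a median log2 fold change of 1.07, against -0.00 over all genes tested. In CSF3R-first 17 rose (73.9%) and 2 fell (8.70%), with a median of 0.53. The list also held Ppat, Pfas and Paics, purine synthesis enzymes that use no folate, and these 3 rose in both groups. Without them 15 of 20 rose and 3 fell in CEBPA-first, and 14 rose and 2 fell in CSF3R-first. Slc19a1, the reduced folate carrier, rose from 30.3 ± 4.92 CPM (n = 4) to 96.4 ± 7.76 (n = 4) in CEBPA-first, a log2 fold change of 1.67 (SE 0.15, edgeR adjusted p = 4.2e-07). Ggh, which trims folate polyglutamates, fell from 95.6 ± 5.55 CPM (n = 4) to 27.1 ± 1.78 (n = 4), a log2 fold change of -1.82 (SE 0.11, edgeR adjusted p = 2.2e-08). Aldh1l1, the cytosolic enzyme that oxidizes formyl-folate, fell to 4.15 ± 0.566 CPM (n = 4) in CEBPA-first from 8.3 ± 1.37 (n = 4), with an edgeR adjusted p of 3.4e-05. Its mitochondrial counterpart Aldh1l2, singled out after its values were seen, had the opposite direction, at 0.866 ± 0.267 CPM (n = 4) in CSF3R-only, 2.14 ± 0.729 (n = 3) in the CSF3R-first samples and 7.44 ± 1.23 (n = 4) in the CEBPA-first samples. Its log2 fold change was 3.09 (SE 0.26, edgeR adjusted p = 3.2e-07) in CEBPA-first and 1.30 (SE 0.28, edgeR adjusted p = 0.0029) in CSF3R-first.

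Serine carbon also enters the methionine cycle and transsulfuration. In a list of these that was widened to polyamine synthesis and methionine salvage (Srm, Amd1 and Mtap), 10 of 12 genes rose (83.3%, against 35.4% of all genes) and none fell in CEBPA-first (median log2 fold change 0.93), and 7 rose (58.3%, against 21.6%) and none fell in CSF3R-first (0.36). Without Srm, Amd1 and Mtap, 7 of 9 genes rose in CEBPA-first and 5 of 9 in CSF3R-first. Cth, cystathionine gamma-lyase, which makes cysteine from the serine-derived cystathionine, rose from 1.54 ± 0.294 CPM (n = 4) in CSF3R-only to 3.45 ± 0.53 (n = 3) in the CSF3R-first samples and 13.8 ± 1.91 (n = 4) in the CEBPA-first samples. The change in CEBPA-first was 8.90-fold (log2 fold change 3.15, SE 0.16, edgeR adjusted p = 4.6e-09). Srm, spermidine synthase, rose in CEBPA-first with a log2 fold change of 1.45 (SE 0.13, edgeR adjusted p = 6.8e-07). Cth thus rose where the cystine importer Slc7a11 fell. Cbs, the cystathionine synthase gene of the list, named after its values were seen, was barely detected. Its means were 0.179 CPM in CSF3R-only, 0.114 in the CSF3R-first samples and 0.429 in the CEBPA-first samples. Use of the pathway was not measured.

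The list of known ATF4 target and stress response genes held members of both directions. Of 34 genes tested, 18 rose (52.9%) and 12 fell (35.3%) in CEBPA-first against CSF3R-only, with a median of 0.19, where 35.4% of all genes were higher and 36.6% lower. The share that fell was thus near that of all genes. In CSF3R-first 12 rose (35.3%) and 9 fell (26.5%), with a median of 0.00, where 21.6% of all genes were higher and 21.1% lower. Without Asns, Chac1, Trib3 and Slc7a11 the counts were 16 higher and 11 lower of 30 in CEBPA-first. Besides Cth, the secreted glycoprotein gene Stc2 rose most among genes whose average log2 CPM was 2 or more, from 7.54 ± 1.31 CPM (n = 4) to 45.6 ± 11.4 (n = 4), a log2 fold change of 2.59 (SE 0.20, edgeR adjusted p = 1.4e-07). Further genes that rose, named after their values were seen, were found in CEBPA-first: Gpt2, mitochondrial alanine aminotransferase, with a log2 fold change of 1.67, Slc7a1, an arginine and lysine transporter, with 1.48, and Pycr1, a proline synthesis enzyme, with 1.31. Cebpb and Atf3, basic leucine zipper factors of the C/EBP and ATF families, fell by 1.69 (SE 0.16, edgeR adjusted p = 6.9e-07) and by 1.30 (SE 0.18, edgeR adjusted p = 2.7e-05). In CSF3R-first their values were -0.56 (edgeR adjusted p = 0.016) and -0.54 (edgeR adjusted p = 0.041). The Cebpb call was lost without CSF3R-first replicate B (-0.45, edgeR adjusted p = 0.08) or replicate C (-0.44, edgeR adjusted p = 0.08), and that of Atf3 without any 1 of CSF3R-only replicates A to D, CEBPA-first replicates A and B and CSF3R-first replicates B and C (-0.58 to -0.38, edgeR adjusted p = 0.051 to 0.18). The Atf3 call was also lost with total-count scaling (-0.46, edgeR adjusted p = 0.053). Ddit3 (CHOP), the factor linked to stress-induced cell death, and Sesn2, a leucine sensor, both named after their values were seen, fell by 0.95 and by 0.77 in CEBPA-first.

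**Figure D4:**
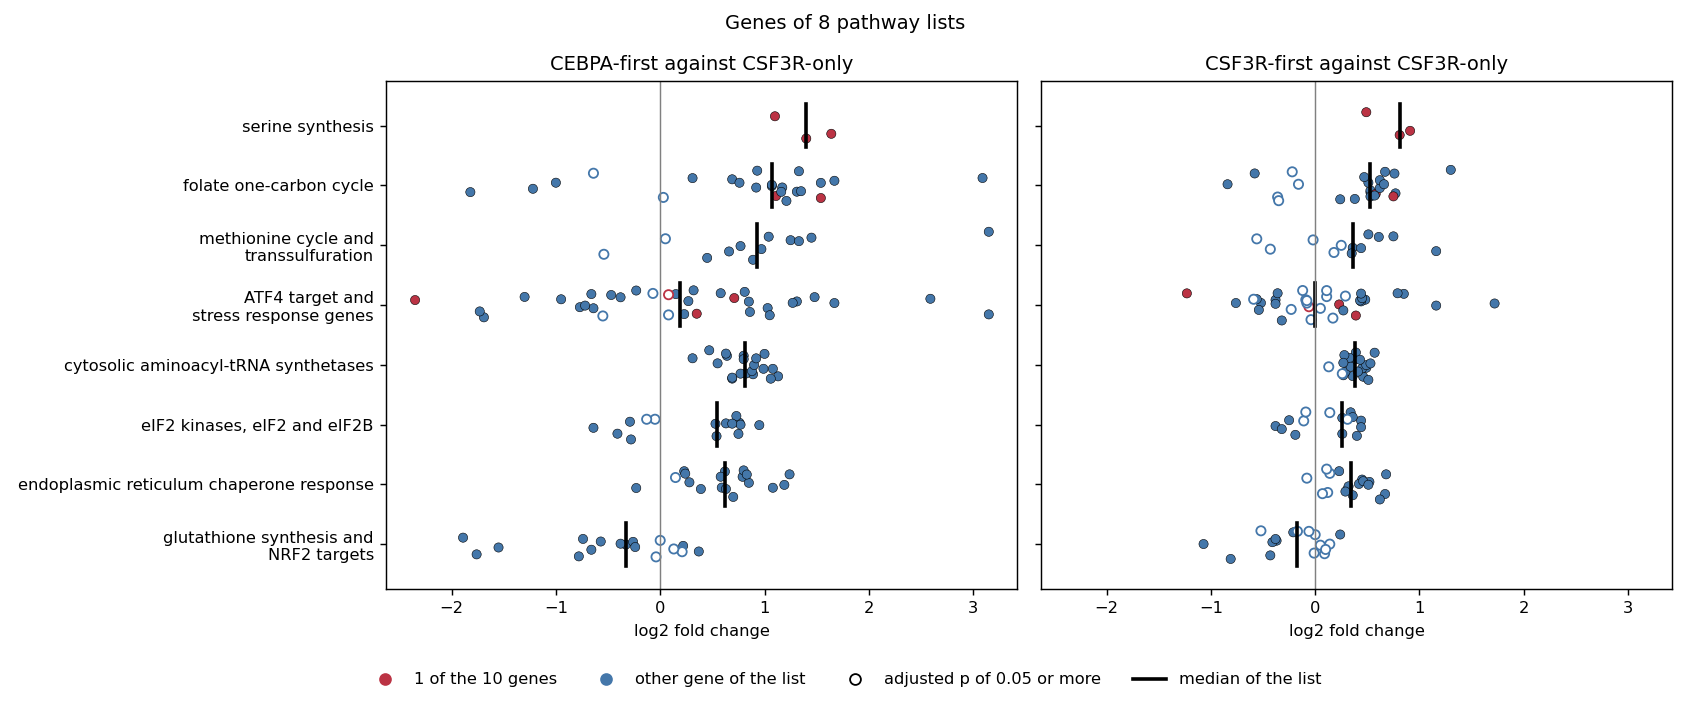
Log2 fold change (horizontal axes) of every tested gene of 8 pathway lists in CEBPA-first (left) and CSF3R-first (right) against CSF3R-only. Red points belong to the 10 genes, open points had an edgeR adjusted p of 0.05 or more, and black lines mark list medians. The aminoacyl-tRNA synthetases lie to the right of 0 throughout (median 0.81 and 0.38), whereas the ATF4 list spreads to both sides (median 0.19 and 0.00).

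Other arms of the response were read in the same way. All 20 cytosolic aminoacyl-tRNA synthetases, which charge tRNAs with amino acids, rose in CEBPA-first (median log2 fold change 0.81), and 18 rose (90.0%, against 21.6% of all genes) and none fell in CSF3R-first (0.38). Iars and Yars, the isoleucine and tyrosine enzymes, rose most, by 1.13 and by 1.08 in CEBPA-first. In a list of eIF2 kinases, eIF2 and eIF2B subunits, eIF2 phosphatase subunits and GCN2 regulators, 9 of 15 genes rose (60.0%, against 35.4% of all genes) and 4 fell (26.7%, against 36.6%) in CEBPA-first (median 0.54). All 7 eIF2 and eIF2B subunits of the list rose, among them Eif2b3 and Eif2b1 of eIF2B, which recharges eIF2, by 0.95 and by 0.77. Of the 4 kinases, Eif2ak4 (GCN2) rose by 0.53 and Eif2ak1 fell by 0.29. The other 3 that fell were Ppp1r15b, the constitutive phosphatase subunit, by 0.28, and Ppp1r15a (GADD34), the stress-induced eIF2 phosphatase subunit, and Impact, an inhibitor of the kinase GCN2, by 0.64 and by 0.41. Of 18 endoplasmic reticulum chaperone response genes, 16 rose (88.9%, against 35.4% of all genes) and 1 fell (median 0.62). Hyou1 and Pdia4, chaperones of the reticulum lumen, rose by 1.24 and by 1.19. Dnajb9 fell by 0.23, a call lost with total-count scaling (-0.09, edgeR adjusted p = 0.16) or without the filter on low counts (-0.15, edgeR adjusted p = 0.15).

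In glutathione synthesis and NRF2 targets, the setting of Slc7a11 and Chac1, 2 of 17 genes rose and 11 fell (64.7%, against 36.6% of all genes) in CEBPA-first (median -0.33), and 1 rose and 7 fell (41.2%, against 21.1%) in CSF3R-first (-0.17). Srxn1, sulfiredoxin, fell from 88 ± 10 CPM (n = 4) in CSF3R-only to 50.1 ± 5.37 (n = 3) in the CSF3R-first samples and 26 ± 1.97 (n = 4) in the CEBPA-first samples. Its log2 fold change in CEBPA-first was -1.76 (SE 0.09, edgeR adjusted p = 7e-09). Hmox1, haem oxygenase, fell by 1.89 on the log2 scale (SE 0.20, edgeR adjusted p = 2e-06) in CEBPA-first and was at -0.52 (edgeR adjusted p = 0.062) in CSF3R-first. There it was called without CSF3R-first replicate A (-0.80, edgeR adjusted p = 0.0032), CEBPA-first replicate C (-0.51, edgeR adjusted p = 0.038) or CEBPA-first replicate D (-0.51, edgeR adjusted p = 0.037), and by DESeq2 (-0.51, adjusted p = 0.032). Hmox1 was also called there with a replicate block (-0.60, edgeR adjusted p = 0.024) and with CEBPA-first left out of the fit (-0.50, edgeR adjusted p = 0.046). The same held without the filter on low counts (-0.47, edgeR adjusted p = 0.031) and without both replicates A (-0.77, edgeR adjusted p = 0.0066). Nqo1, a quinone reductase named after its values were seen, fell by 1.55 in CEBPA-first and by 1.07 in CSF3R-first. Gsr, glutathione reductase, and Keap1, the repressor of NRF2, rose by 0.37 and by 0.22 in CEBPA-first. Neutrophil markers fell over the same groups (sums given above), and their part in these falls was not tested.

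For each of the 10 genes the most similar profile was sought among 10072 other genes whose average log2 CPM was 2 or more, as the root mean square difference of standardized log2 CPM over the 11 samples, a measure set mostly by the group means. Acy1 was nearest to Phgdh (0.0511), Myb to Psat1 (0.0703), Ssr2 to Psph (0.0693), Nop16 to Shmt2 (0.0543), Mak16 to Mthfd2 (0.0518), Lrrc1 to Asns (0.0964), Tuba1b to Atf4 (0.0849) and Sntb2 to Slc7a11 (0.0986). Chac1 and Trib3 had no close neighbour, with Tmem101 at 0.31 and Lpin1 at 0.516. Psat1 and Shmt2 were nearer to each other (0.0479) than either was to any of the 10072 genes. For the other genes of the 10, outside genes were nearer than the nearest of the 10, from 6 outside genes for Mthfd2 to 5007 for Slc7a11.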

How the data were processed

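RNA from 11 samples was extracted, made into libraries with the SMARTer low-input kit and sequenced by the authors. They trimmed reads with Trimmomatic and aligned them with STAR (processing notes: build mm10, DESeq2), and deposited raw read counts per gene, without normalization. The counting tool, annotation and use of strand are not given in the sources used here. Among 51912 genes, 23409 were without counts throughout and 279 had no symbol (at most 0.00896% of a sample's counts). Replicate pairs all differed beyond sampling noise, so none was merged.

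From the deposited counts, R 4.3.3 with edgeR 4.0.16 computed TMM library sizes, filterByExpr (15703 genes left), and quasi-likelihood tests with the 3 groups fitted together and no covariate. A standard error is the absolute log2 fold change over the root of the F statistic. CPM used TMM library sizes, with a prior count of 2 on the log2 scale. The method was tested on simulated data, in which CSF3R-first was given an intermediate change. Of 100 genes changed 1.5-fold in CEBPA-first, 86 were recovered against CSF3R-only, but 6 in CSF3R-first against CSF3R-only and 7 between the orders. Of 100 genes changed 2-fold, 99, 53 and 65 were recovered in the same order. Small changes in comparisons with CSF3R-first can thus go uncalled. Positions come from a GRCm38 annotation, promoter windows from RefSeq. Near-identical copies (100 bp or more at 97% identity or more) were searched with BLAST 2.17.0. Figures used matplotlib 3.10.9.

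The 10 genes and all lists were chosen with earlier results of these data known. Named outside the 10 were, per list, up to 2 called genes that rose and 2 that fell most in CEBPA-first against CSF3R-only (average log2 CPM of at least 2), and the gene most alike to each of the 10. Others are marked where named. Alternatives were DESeq2 1.42.0, other library sizes and filters, the compared groups only, a replicate block, other thresholds and each sample left out. Leaving out both replicates A together was added after seeing the data.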

Additional observations from a re-analysis of the deposited data

How the results depend on the processing

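Of 600 alternative values for the 30 log2 fold changes of the 10 genes, 590 kept their direction and their side of the threshold, 5 lost the call (4 for Asns and 1 for Chac1, all in CSF3R-first against CSF3R-only) and 5 changed sign, all in values that were never called. Those were Chac1 between the orders, at 0.01 with total counts only and -0.09 to 0.02 with samples left out, and Trib3 in CSF3R-first against CSF3R-only, at 0.02 with total counts only and -0.15 to 0.03 with samples left out. Against a log2 fold change of 0.5 (glmTreat), 8, 3 and 3 of the 10 genes were called in CEBPA-first against CSF3R-only, CSF3R-first against CSF3R-only and CEBPA-first against CSF3R-first, against 6225, 785 and 1883 of all 15703 genes, and with a log2 fold change of at least 1 as well 1 was called in each of the last 2. Total counts only moved the median log2 fold change of all genes to 0.129, 0.0634 and 0.0497, and in CSF3R-first against CSF3R-only it called 4324 genes higher and 2658 lower, against 3385 and 3318 with TMM. Dnajb9 changed sign there (0.01), the 1 sign change among 1540 alternative values of the other named genes, of which 35 lost and 11 gained a call. The counts called in the 8 lists stayed within 1.5 times in 144 alternatives. With the replicate block, 9, 9 and 8 of the 10 genes and 11501, 7216 and 7705 of all genes were called. The labels do not say what a letter marks, and not every same-letter pair correlated by over 0.1, so the samples were not taken as paired. Same-letter samples correlated by -0.107 to 0.362 over genes (median 0.124), different letters by -0.341 to 0.384 (median -0.0694), and 12 of 20 cases correlated best with their own letter, a hint of pairing from the data, not the design. Replicates differed beyond counting noise, so the 3 or 4 samples a group limit these values more than depth does.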
